A study of Mus musculus with 2 samples.

Results

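Decorin, biglycan, asporin, lumican, fibromodulin, prolargin, osteomodulin, osteoglycin and podocan are small leucine-rich proteoglycans, and versican is a large proteoglycan of the same matrix. Their 10 genes (Dcn, Bgn, Aspn, Lum, Fmod, Prelp, Omd, Ogn, Podn and Vcan) were chosen by name, and every probe set annotated to exactly 1 of these symbols was taken. This gave 28 of the 45037 probe sets, and all 10 genes were among the 14066 genes measured. The arrays came from epididymal white adipose tissue, a depot of visceral fat, of male C57BL/6 mice whose diets began at 9 weeks of age. One array held tissue of a mouse kept on a high-fat diet for 7 weeks, and the other held tissue of a mouse on normal chow. The labels give neither the composition of the high-fat diet nor the age at which the chow-fed mouse was sampled.

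Small leucine-rich proteoglycans are secreted proteins whose curved, repeat-built core binds collagen fibrils and sets how thick and how closely packed the fibrils are. Many of them carry chondroitin, dermatan or keratan sulfate chains, and several bind growth factors of the TGF-beta family. Versican binds hyaluronan through one end and carries many chondroitin sulfate chains, which hold water in loose matrix. In fat, these genes are expressed mainly by fibroblasts and other stromal cells, and the matrix they help to build surrounds each fat cell.

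With 1 array per diet there was no replicate, no test of the diet was possible, and "higher" and "lower" refer to nothing beyond these 2 samples. Values are the deposited linear intensities, and differences are log2 of the high-fat diet intensity minus log2 of the chow intensity. The 40th percentile of each array, an intensity of 27.9 on the high-fat diet array and 28.6 on the chow array, was used as a lower limit for weak signal (the floor), and smaller values were raised to it. Each gene is represented by its brightest probe set. In 5196 genes several probe sets exceeded the floor with both diets, and within a gene their differences scattered with a pooled SD of 0.32 (log2). It was smaller for brighter genes, at 0.37 below a mean intensity of 100, 0.29 from 100 to 400 and 0.20 above 400. This SD covers probe error only and holds no difference between mice. The tissue label was checked against marker genes: Fabp4, the fatty acid binding protein of fat cells, had the highest intensity of either array, at 11559.7 on the high-fat diet and 10726.6 on chow. Of 8 listed epididymis genes 5 had a probe set, and only Lcn8 passed the floor on both arrays, at 32.9 on the high-fat diet and 55.1 on chow. Adam7 passed it on the high-fat diet array only, at 38.4, and read 13.9 on chow.

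The 10 genes did not share a direction. On the high-fat diet 6 of them were higher and 4 lower, with a median difference of 0.18. Over all measured genes the median was -0.022, and of those above the floor with both diets 46.8% were higher and 52.9% lower. Prelp was the highest at 1.11 and Podn the lowest at -0.76. Only Prelp, 1 of 10, was higher by 2-fold or more, a size that 1.17% of all measured genes reached, and 0 of 10 were lower by 2-fold or more, against 1.35% of all genes. At 1.5-fold, 2 of 10 were higher (Prelp and Aspn) against 5.82% of all genes, and 1 of 10 was lower (Podn) against 6.4%. The other 7 genes lay within 1.5-fold, and counts as small as these say little about the genes as a set. Each of the 10 exceeded the floor with either diet. In a whole fat pad, a lower intensity from fewer cells of a type cannot be told apart from less RNA per cell.

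**Figure D1:**
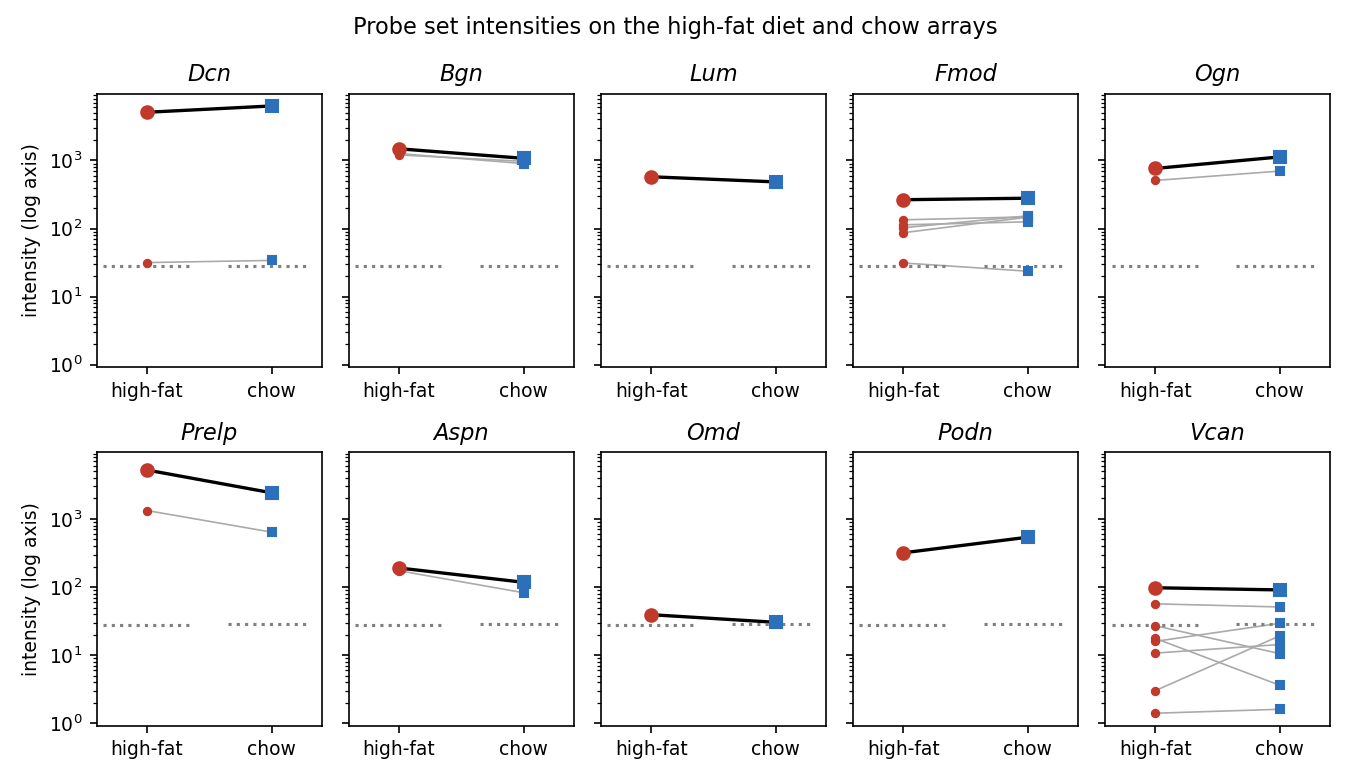
Intensity of each probe set of the 10 genes on the high-fat diet array (circles, left) and the chow array (squares, right), on a log axis, with a black line for the brightest probe set and grey lines for the others. Dotted lines are the floors of 27.9 and 28.6. Prelp slopes down towards chow in both of its probe sets, and 5 of the 8 Vcan probe sets lie under both floors.

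Sequences upstream of 5 of these genes are shown because Prelp and Fmod, and likewise Aspn and Ogn, lie close together in the genome yet differed in direction, and because Podn had the lowest difference. The difference of Fmod, -0.072, was within the probe SD of 0.29 for genes of its intensity. Dcn and Lum, also neighbours that differed in direction, had no sequence window in the reference used. Each run holds 250 bases before and 50 bases after a gene's annotated start, 5′ to 3′ on the gene's strand, from RefSeq on build GRCm38.p6. The positions are chr1:133921352-133921651 on the minus strand for Prelp, chr1:134037004-134037303 on the plus strand for Fmod, chr13:49544193-49544492 on the plus strand for Aspn, chr13:49607765-49608064 on the plus strand for Ogn, and chr4:108031905-108032204 on the minus strand for the first of the 2 starts of Podn. Capitals mark matches to any of 5 short motifs, described after the sequences.
Prelp: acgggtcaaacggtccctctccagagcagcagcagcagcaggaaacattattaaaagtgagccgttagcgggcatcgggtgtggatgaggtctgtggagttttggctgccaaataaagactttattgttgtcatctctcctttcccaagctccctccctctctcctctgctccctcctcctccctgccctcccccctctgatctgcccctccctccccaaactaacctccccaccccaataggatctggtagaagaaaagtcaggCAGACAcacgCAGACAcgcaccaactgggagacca
Fmod: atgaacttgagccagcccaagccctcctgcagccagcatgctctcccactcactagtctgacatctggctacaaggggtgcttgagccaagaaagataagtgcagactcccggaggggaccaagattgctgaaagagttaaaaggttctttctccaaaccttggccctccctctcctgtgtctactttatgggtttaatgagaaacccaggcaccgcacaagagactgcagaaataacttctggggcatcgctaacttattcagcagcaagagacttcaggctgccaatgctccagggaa
Aspn: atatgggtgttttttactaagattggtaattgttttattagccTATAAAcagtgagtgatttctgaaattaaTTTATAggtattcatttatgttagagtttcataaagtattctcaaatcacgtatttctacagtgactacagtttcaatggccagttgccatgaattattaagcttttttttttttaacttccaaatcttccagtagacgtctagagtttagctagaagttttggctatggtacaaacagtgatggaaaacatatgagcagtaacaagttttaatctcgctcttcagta
Ogn: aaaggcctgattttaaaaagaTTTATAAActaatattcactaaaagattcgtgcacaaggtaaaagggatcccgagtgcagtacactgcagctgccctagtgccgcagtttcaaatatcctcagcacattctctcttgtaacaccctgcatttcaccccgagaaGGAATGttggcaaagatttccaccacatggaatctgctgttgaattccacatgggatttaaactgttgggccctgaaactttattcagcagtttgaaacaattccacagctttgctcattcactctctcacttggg
Podn: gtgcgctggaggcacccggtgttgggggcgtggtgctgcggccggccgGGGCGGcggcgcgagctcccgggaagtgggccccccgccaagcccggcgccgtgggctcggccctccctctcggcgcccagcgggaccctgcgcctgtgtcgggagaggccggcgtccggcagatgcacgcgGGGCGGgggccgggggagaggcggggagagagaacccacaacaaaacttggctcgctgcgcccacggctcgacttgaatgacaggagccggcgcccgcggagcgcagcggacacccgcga

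Motifs were searched on both strands as exact letters. The TATA box was taken as TATAAA, and the GC box, which Sp1-type factors bind, was taken as GGGCGG. The site of AP-1 factors, where N stands for any base, was written TGANTCA. For TEAD factors, which work with the Hippo pathway, the letters were GGAATG, and for SMAD proteins, which carry TGF-beta signals, they were CAGACA. Prelp held 2 SMAD matches, 15 and 25 bases after the start, a motif found in 21.0% of the 32851 RefSeq promoter windows of this length. Fmod held none of the 5 motifs. Aspn had 2 TATA matches, 207 and 178 bases before its start, and Ogn had 2 overlapping ones 229 and 227 bases before its start, where 13.6% of all windows have at least 1. Ogn also had a TEAD match, present in 14.7% of windows, 86 bases before the start. Podn held 2 GC boxes, present in 35.7% of windows. Base composition ran from 31.0% G and C in Aspn, with only 1.28% of windows lower, over 42.3% in Ogn, 51.0% in Fmod and 55.3% in Prelp to 77.0% in Podn, with 97.6% of windows lower. None of these matches was tested for a function.

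Among the genes closest to decorin, biglycan and asporin were higher on the high-fat diet array and decorin was lower. Decorin, the most studied family member, decorates collagen I fibrils and binds TGF-beta. The main probe set of Dcn read 5097 on the high-fat diet and 6312 on chow, a difference of -0.31. A second, weak probe set of Dcn read 31.6 on the high-fat diet and 34 on chow, just above the floors, and differed by -0.11. Both were lower on the high-fat diet. The difference of the main probe set exceeded the probe SD of 0.20 for genes this bright but not the 0.32 over all genes, and 19.6% of all measured genes were at least as much lower.

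Biglycan is the closest relative of decorin, and in soluble form it can activate the innate immune receptors TLR2 and TLR4. The 3 probe sets of Bgn read 1480.4, 1204 and 1261 on the high-fat diet, against 1073, 968.4 and 898.8 on chow. All 3 were higher on the high-fat diet, by 0.46, 0.31 and 0.49, with an SD between them of 0.094. The brightest is marked by the array maker as sharing probes with other sequences. A difference as high as that of the brightest, 1.38-fold, was reached by 9.28% of all genes.

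Asporin resembles decorin and biglycan but has a run of aspartate residues and no glycosaminoglycan attachment site, and it restrains TGF-beta signalling. Its 2 probe sets read 190.2 and 173.2 on the high-fat diet, against 117.2 and 82.3 on chow. Aspn was thus higher by 0.70 in the brighter and 1.07 in the other, 1.62-fold and 2.10-fold, and 3.73% of all genes were as high as the brighter. The SD between the 2 values, 0.27, was within the pooled probe SD. The array maker marks the weaker probe set, but not the brighter, as matching more than 1 transcript.

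The keratan sulfate class (lumican, fibromodulin, prolargin and osteomodulin) held the highest difference of all. Prolargin has a basic, arginine-rich end that binds heparin and heparan sulfate and is thought to tie basement membranes to the collagen beneath. Prelp read 5224 on the high-fat diet and 2416 on chow in its brightest probe set, which the array maker marks as matching more than 1 transcript. Its other probe set, without that mark, read 1327 on the high-fat diet and 638.6 on chow. The 2 differences, 1.11 and 1.06, or 2.16-fold and 2.08-fold higher, had an SD between them of 0.040. Of all measured genes 105, or 0.746%, were at least as high as Prelp.

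Lumican, which keeps corneal fibrils evenly spaced and is abundant in connective tissue, had 1 probe set, at 575.3 on the high-fat diet and 483.5 on chow. Its difference of 0.25 was above the probe SD of 0.20 for genes this bright and below the 0.32 over all genes, and 21.0% of genes were as high. Osteomodulin, known from mineralised bone matrix, read 39.2 on the high-fat diet and 30.3 on chow, 1.41 and 1.06 times the floor. The difference of 0.37 for Omd rested on that single weak probe set and did not exceed the probe SD of genes under 100, also 0.37.

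Fibromodulin competes with lumican for a site on collagen I. The brightest probe set of Fmod read 264.8 on the high-fat diet and 278.4 on chow, a difference of -0.072. It was the only one of its 6 probe sets that the array maker does not mark as sharing probes with other sequences. The 4 others that passed the floor with both diets read between 86.7 and 134.2 on the high-fat diet and between 125.3 and 153.5 on chow. All 5 were lower on the high-fat diet, but with differences from -0.072 to -0.76 and an SD of 0.31, so the size of the Fmod difference depends on the probe set. The last one read 31.2 on the high-fat diet and 23.6, under the floor, on chow.

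Osteoglycin and podocan, which stand apart from the classes above by sequence, were lower. Osteoglycin, also called mimecan, takes part in collagen fibril formation, and its 2 probe sets read 762.1 and 507.8 on the high-fat diet, against 1125 and 697.4 on chow. Ogn was lower in both, with differences of -0.56 and -0.46 and an SD of 0.074, or 1.48-fold and 1.37-fold, and 7.07% of genes were as low as the brighter. Podocan was first described in kidney glomeruli and slows the growth of smooth muscle cells in arteries. The 1 probe set of Podn read 317.6 on the high-fat diet and 539.1 on chow, 1.70-fold lower, and 3.15% of genes were at least as low.

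Versican was measured by few of its probe sets. Of 8 for Vcan, 5 lay under the floor on both arrays, at 1.4 to 27 on the high-fat diet and 1.6 to 19.2 on chow, and 1 passed it on chow only, at 15.9 on the high-fat diet and 29.3 on chow. The remaining 2 read 97.5 and 56.6 on the high-fat diet, against 90.6 and 50.9 on chow. Their differences of 0.11 and 0.15 were under the probe SD, and no difference of Vcan was discernible at this signal.

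**Figure D2:**
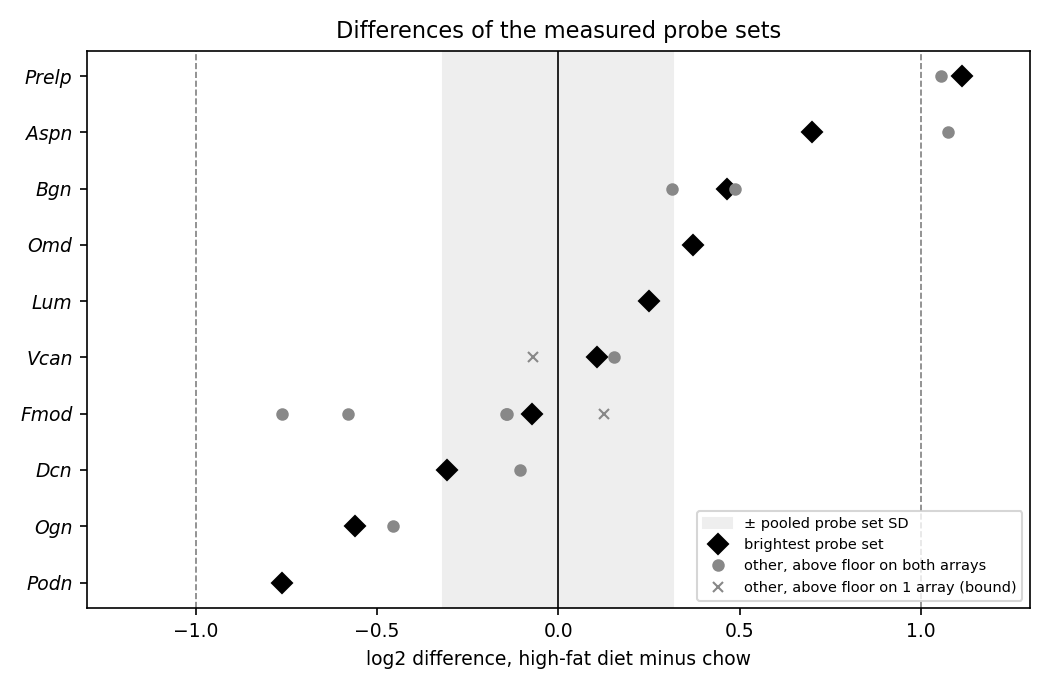
Log2 difference, high-fat diet minus chow, of every probe set of the 10 genes that passed the floor on at least 1 array, ordered by the brightest probe set (diamonds). Grey points are other probe sets, crosses are bounds, the grey band is the pooled probe SD of 0.32 and dashed lines mark 2-fold. Prelp, Aspn and Ogn lie outside the band in each probe set, as do Podn and Omd with 1 probe set each, and the Fmod points spread from -0.76 to 0.13.

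Where several probe sets of a gene passed the floor with both diets, they shared a direction in 7 of 7 cases (Dcn, Bgn, Aspn, Fmod, Prelp, Ogn and Vcan). This leaves out probe sets above the floor on 1 array, whose bounds went the other way for Fmod (0.13) and Vcan (-0.071). The share of all genes with such agreement was not computed. Over the 21 probe sets above the floor with both diets, 11 were higher and 10 lower on the high-fat diet. Against the probe SD of genes of their own intensity, the brightest probe sets of 7 genes differed by more (Prelp, Aspn, Bgn, Lum, Dcn, Podn and Ogn), and those of Omd, Vcan and Fmod did not. Against the SD over all genes there were 6, with Omd in and with Lum and Dcn out. The share of all genes past these SDs was not computed. Over all measured genes the quartiles of the difference were -0.24 and 0.20, so differences past 0.20 were common. The spread from Prelp to Podn was 1.88 log2 units.

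**Figure D3:**
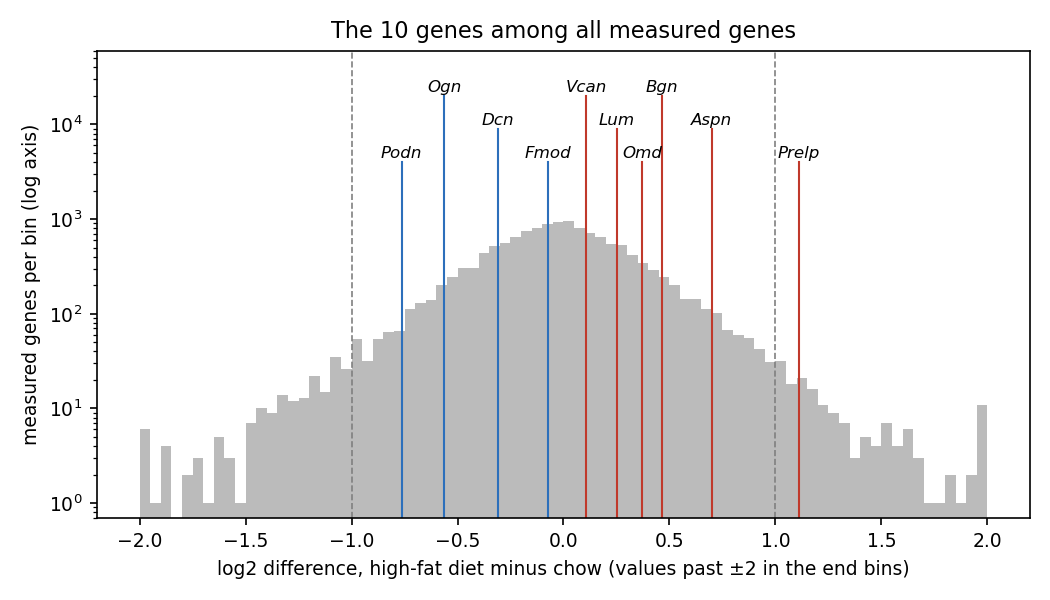
Histogram of the log2 difference, high-fat diet minus chow, over the 14066 measured genes (log count axis), with a line at each of the 10 genes, red where higher and blue where lower on the high-fat diet. Dashed lines mark 2-fold. Prelp is the only one of the 10 outside these lines.

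Of the 10 genes 8 have a related gene as their immediate neighbour among protein-coding genes, in 4 runs, and the neighbours did not all share a direction. On chromosome 1 the order is Optc, Prelp, Fmod, and Prelp exceeded Fmod by 1.18 log2 units, with the nearest of their probe sets 1.13 apart. Opticin (Optc), an eye protein, was listed at 27.9, the floor itself, on the high-fat diet and at 4.3 on chow. On chromosome 10 the order is Dcn, Lum, Kera, Epyc, and Lum exceeded Dcn by 0.56, with a gap of 0.36 between their nearest probe sets. Keratocan (Kera), a corneal family member, was at 2.5 on both arrays, and epiphycan (Epyc), of growth cartilage, was weak at 29 on the high-fat diet and 53.3 on chow. On chromosome 13 the order is Ecm2, Aspn, Omd, Ogn, and the adjacent Aspn and Omd were both higher, 0.33 apart. Omd exceeded its other neighbour Ogn by 0.93, with a gap of 0.83 to the nearest probe set, and Aspn, on the far side of Omd, exceeded Ogn by 1.26. Ecm2 was at 30.4 on the high-fat diet and 26.3, under the floor, on chow. Elsewhere on chromosome 13 Vcan lies beside Hapln1, a link protein that was under the floor, at 4.8 on the high-fat diet and 5.5 on chow. Each of these gaps is larger than the pooled probe SD of 0.32, that of Aspn and Omd barely so. That SD is for single probe sets, however, and a gap between 2 genes carries the probe error of both. The gap of 0.33 between Aspn and Omd and the nearest gap of 0.36 between Lum and Dcn are thus not clearly beyond probe error. No replicate shows how the gaps vary between mice.

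**Figure D4:**
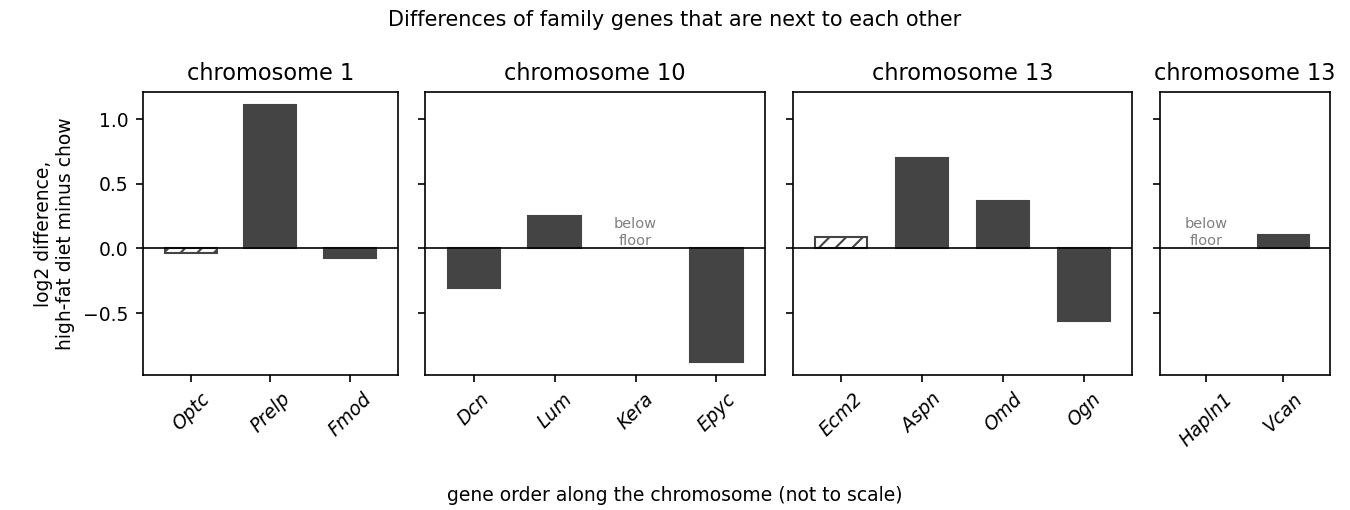
Log2 difference, high-fat diet minus chow, of family genes that are immediate neighbours, in their order along the chromosome (not to scale). Filled bars are genes above the floor on both arrays and hatched bars are bounds from genes above it on the high-fat diet array only. Optc, listed at the floor itself, has no readable direction, and bars of both signs appear within the runs on chromosomes 1, 10 and 13.

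Other genes of the same families were mostly weak. Of 16 further small leucine-rich and large aggregating proteoglycans and link proteins, 14 had a probe set here and 9 passed the floor, 7 of them on both arrays (3 higher, 4 lower). Neurocan (Ncan), a brain proteoglycan, read 90.1 on the high-fat diet and 32.5 on chow, but its other probe sets differed by 0.87 and 0.0050. Nyctalopin (Nyx), a leucine-rich protein of the retina, was 1.52-fold higher, at 79.9 on the high-fat diet and 52.5 on chow, and Epyc was 1.84-fold lower.

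In their brightest probe sets, enzymes that build the sugar chains differed by less than 1.5-fold. Among genes of chondroitin and dermatan sulfate synthesis above the floor on both arrays, 13 were higher and 5 lower, with a list median of 0.14, and 0 of 19 measured passed 1.5-fold in either direction. The largest differences were those of the polymerising factors Chpf2 (0.58, but -0.18 in its other probe set) and Chpf (0.45) and of Csgalnact2 (0.45), which starts the chain. Keratan sulfate genes leaned the other way, with 1 higher and 6 lower on both arrays and a median of -0.28, among them B3gnt7 at -0.58, Chst4 at -0.48 and B4galt1 at -0.45. Chst4 was weak, at 33.7 on the high-fat diet and 47 on chow. With the floor at the 60th percentile the keratan sulfate median was -0.13. The sialyltransferases of that list were uneven, since St3gal2, counted lower at -0.054, differed by 0.29 to 0.60 in its other probe sets, and St3gal3, counted higher at 0.042, by 0.78 in its other one. None of the lists was tested against other genes.

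Collagen chains whose fibrils these proteoglycans bind were higher for the most part, at 10 of 12 above the floor on both arrays, with a median of 0.49 over the 14 chains measured. The chains Col6a2, at 2529 on the high-fat diet and 1299 on chow, Col6a1 and Col12a1 differed by 0.96, 0.91 and 0.96. The differences of Prelp, Aspn, Bgn, Lum, Omd and Vcan had the same sign as these, and those of Dcn, Ogn, Podn and Fmod the opposite one. Those of Omd, Vcan and Fmod did not exceed the probe SD of genes of their own intensity. Genes of processing and cleavage were mixed, with 6 higher and 5 lower. Pcolce2, an enhancer of procollagen processing, was 2.97-fold higher, at 370.6 on the high-fat diet and 124.7 on chow. Mmp9, a gelatinase, was 2.51-fold lower, at 65.6 on the high-fat diet and 164.9 on chow (-0.47 in its other probe set), and Mmp12, the macrophage elastase, was 1.78-fold higher. Adamts5, which cleaves versican, differed by 0.22.

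**Figure D5:**
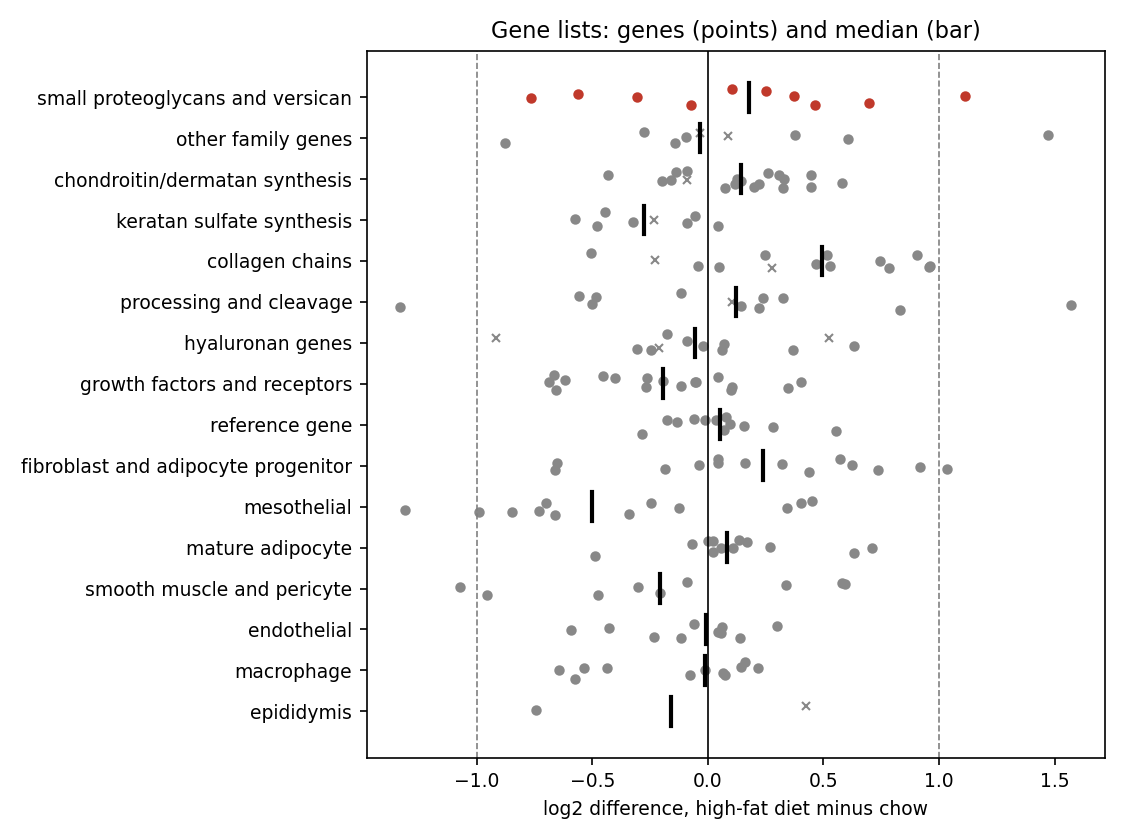
Log2 difference, high-fat diet minus chow, of the measured genes of each list (points, or crosses where a gene passed the floor on 1 array only), with the list median as a black bar and dashed lines at 2-fold. The 10 proteoglycans (red) spread on both sides of 0, and the collagen chains lie mostly to the right, with a median of 0.49.

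Markers of most cell types in the pad were uneven, with single genes on both sides. Fibroblast and progenitor markers counted 10 higher of 14, at a median of 0.24, and their summed intensities were 17259.8 on the high-fat diet and 15686 on chow. Of these 14 markers 4 were 1.5-fold or more higher and 2 lower, where 5.82% and 6.4% of all measured genes were. Cd55 was 2.05-fold and Dpt 1.54-fold higher. The 2 lower ones were Pdgfra (-0.66, but 0.19 in its other measured probe set) and F3 (-0.65). Gsn read 10164.5 on the high-fat diet and 10431 on chow, and its other measured probe sets differed by -0.069 to 0.95. Mesothelial markers, from the lining that covers the depot, counted 9 lower of 12, at a median of -0.50, and their summed intensities were 1518 on the high-fat diet and 2045 on chow. Of these 12 markers 0 were 1.5-fold or more higher and 6 lower. The mesothelial median was -0.24 with the least different probe set of each gene and -0.25 with the floor at the 60th percentile. Bnc1 was 2.48-fold lower, at the floor on the high-fat diet, Upk3b 1.62-fold and Lrrn4 1.66-fold lower. Smooth muscle and pericyte markers counted 6 lower of 9, at a median of -0.21, with sums of 4618 on the high-fat diet and 4670 on chow. At 1.5-fold 1 of these 9 was higher and 2 lower. Myh11, the myosin of smooth muscle, was 2.10-fold lower, at 63.2 on the high-fat diet and 133 on chow, while Acta2 differed by 0.34 and Rgs5 by -0.091. With the mean of all probe sets this median was -0.0061, and the fibroblast median was 0.045 with unmarked probe sets only. Of 12 mature adipocyte markers 2 were 1.5-fold or more higher and 0 lower. Among 10 endothelial and 11 macrophage markers 0 were higher by that much and 1 in each list was lower. Medians were 0.083 for mature adipocyte, -0.0074 for endothelial and -0.011 for macrophage markers. The brightest of these were Fabp4 and Car3 (0.11 and 0.021), Esam and Cldn5 (-0.12 and 0.30) and Lyz2 and Csf1r (0.16 and 0.067). No marker list was at 0 on either array, but genes under the floor also read above 0, as Kera did at 2.5 on both. A sum above 0 therefore does not show that a cell type was present. The part of these cell types in the differences of Prelp, Podn, Ogn and the other proteoglycan genes was not tested.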

How the data were processed

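Per the labels' protocols, Trizol was used for RNA extraction and biotin-labelled cRNA was made for Affymetrix arrays from 10 µg. The authors deposited 1 linear intensity per probe set and array. How they summarised and scaled the probes is not given in the sources used here. Means after trimming 2% at each end were 99.6 on both arrays, and intensities were used as deposited. Gene symbols came from GEO's 2016 annotation of the platform: 34945 had 1 gene symbol, 932 several and 9160 none here. Among probe sets with several symbols 0 named one of the 10 genes. A gene counted as measured if a probe set reached the floor on at least 1 array, which gave 14066 genes, 12478 of them on both arrays. The number of arrays limits the precision. The steps were tested on simulated data, with Python 3.11.15 and pandas 2.3.3.

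The 10 genes and all lists were chosen with earlier results of these data known. Beside all probe sets of the 10 genes, the text names from each list the 3 largest differences above the floor on both arrays and genes past 2-fold, and for cell types the genes past 2-fold and the 2 brightest. St3gal2, St3gal3, Egfr, Tgfbr1, Adam7, Pdgfra, F3, Itih4, Optc, Kera, Ecm2, Hapln1 and Adamts5 were named for their place, role or values, after the values were seen. The same holds for Tgfbr2, P2rx7 and Tlr4. Gene order came from RefSeq, and 8 of the 10 genes matched its promoter table. Alternatives were other floors, probe set choices and scalings.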

Additional observations from a re-analysis of the deposited data

How the results depend on the processing

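The directions of Prelp, Aspn, Bgn, Omd, Lum, Dcn, Fmod, Ogn and Podn held under the alternatives run for them (10 each, 9 for Omd, which fell under the floor at the 60th percentile). Not all alternatives could change a value. Lum, Omd and Podn had 1 probe set each, so the choice of probe set could not move their differences. A brightest probe set above each floor on both arrays also kept its difference when the floor was moved. The difference of Prelp lay between 1.01 and 1.13, of Aspn between 0.63 and 0.89, of Podn between -0.82 and -0.73, of Ogn between -0.64 and -0.46, of Bgn between 0.31 and 0.49 and of Dcn between -0.42 and -0.11. Vcan was at -0.071 with the probe set of smallest difference, one that passed the floor on chow only. The median over the 10 genes lay between 0.090 and 0.20. With quantile normalization, lowess centring and reference gene centring, 2 genes in place of 1 were lower by 1.5-fold or more, since Ogn joined Podn.

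The counts over all genes moved with the floor, whose construction sets how many weak genes can differ. At the 20th percentile 608 genes were 2-fold or more higher and 727 lower, and 1644 and 1754 at 1.5-fold. At the 60th percentile these counts were 90 and 66, and 391 and 425. Without a floor, on log2(intensity + 16), 247 were 2-fold or more higher. The counts as reported were 164 and 190 at 2-fold and 819 and 900 at 1.5-fold. The pooled probe SD was 0.44 with the floor at the 20th percentile. The median of the processing and cleavage list was 0.12 as reported, -0.030 with that floor, -0.024 without a floor, -0.079 with the mean of all probe sets and -0.043 when the least different probe set stood for each gene, and the cause was not tested. The keratan sulfate median, -0.28 as reported, was -0.13 with the floor at the 60th percentile. Medians of marker lists moved too, to -0.24, -0.25 and -0.35 for mesothelial (-0.50 as reported), 0.045 for fibroblast (0.24), -0.0061 for smooth muscle (-0.21) and -0.044 for adipocyte markers (0.083). No paired analysis was possible because each diet had 1 array. Differences of signals near the floor, as for Omd and most Vcan probe sets, cannot be resolved here.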

Other observations

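Genes of hyaluronan, the long sugar chain that versican binds, differed in both directions. Above the floor on both arrays 4 were higher and 5 lower, with a median of -0.056 over the 12 measured. Itih5, whose family of heavy chains is attached to hyaluronan, was the highest, at 2408 on the high-fat diet and 1554 on chow, and its other probe sets differed by 0.80 to 1.05. Itih2 was 1.29-fold higher, and Lyve1, a hyaluronan receptor of lymphatic vessels and some macrophages, was 1.24-fold lower, at 284.8 on the high-fat diet and 352.1 on chow, with -0.68 in its other probe set. Itih4 passed the floor on chow only, at 7.2 on the high-fat diet and 52.7 on chow, at least 1.89-fold lower.

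Growth factors and receptors that these proteoglycans are known to bind counted 12 lower of 17, at a median of -0.19, where 52.9% of all genes above the floor on both arrays were lower. The largest differences were those of Igf1r, the receptor of insulin-like growth factor (-0.69, with -0.22 to -0.095 in its other probe sets), Erbb2 (-0.66) and Tgfb3 (-0.66, at 131 on the high-fat diet and 206.5 on chow). In their brightest probe sets none reached 2-fold. The other measured probe sets of Egfr differed by -1.29 to -0.096 and those of Tgfbr1 by -1.19 to -0.53, so some passed 2-fold. Probe sets of a gene also differed in sign. Tgfbr2, counted lower at -0.049, and P2rx7, counted lower at -0.26, differed by 0.56 and 0.46 in their other measured probe sets. Tlr4, counted higher at 0.10, differed by -0.68 to -0.27 in its others. No replicate shows how these values vary between mice.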
